A study of Mus musculus with 29 samples.

Results

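The 10 genes described here encode the mouse NAIP receptors and the core parts of the inflammasome: Naip2, Naip5, Naip6, Nlrc4, Nlrp3, Aim2, Pycard, Casp1, Casp4 and Gsdmd. They were taken by name from the 21938 protein-coding genes of GENCODE vM21 on GRCm38. For each gene, every peak of the 25 deposited CUT&RUN peak lists that overlapped the gene body or 20 kb on either side was collected, and each chromosome, start and end was counted once. This gave 642 distinct peaks in 7 merged windows that together span 675 kb. The windows of Naip2 and Naip5 overlap, as do those of Naip5 and Naip6 and of Casp1 and Casp4. Naip2 and Naip5 share some IRF8 regions, as do the caspases, and Naip5 and Naip6 share none.

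Inflammasomes are protein platforms that form in the cytosol of macrophages when a sensor meets a microbial product or a sign of cell damage. NAIP proteins bind bacterial flagellin or parts of type III secretion systems and then assemble with NLRC4, while NLRP3 responds to disturbed ion balance and AIM2 to cytosolic DNA. The adaptor ASC, encoded by Pycard, recruits caspase-1, which matures interleukin 1 beta and interleukin 18 and cleaves gasdermin D into a membrane pore. Mouse caspase-11, encoded by Casp4, cleaves gasdermin D after binding bacterial lipopolysaccharide. IRF8 is a transcription factor of the myeloid lineage that often binds DNA together with PU.1 at joined ETS and IRF motifs, and it is known as an activator of Naip genes in macrophages.

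IRF8 was mapped through its EGFP tag, with an antibody against GFP, in female mice of the strain IRF8-EGFP. These libraries came from microglia, the resident macrophages of the brain, at postnatal day 9 (P9, 4 libraries), at postnatal day 14 (P14, 3 libraries) and in adults (3 libraries), and from peritoneal macrophages (3 libraries). PU.1, H3K27ac (a mark of active promoters and enhancers) and H3K4me1 (a mark of enhancers whether active or not) were mapped in adult microglia of female wild-type (WT) and IRF8 knockout (KO) mice, with 2 libraries per target and genotype. The mice behind the adult cells were 3 months old by the growth protocol, and cells for transcription factors were fixed in 1% paraformaldehyde for 10 min. Microglia were sorted by flow cytometry, and the peritoneal libraries carry a source label that names microglia, against which their title was followed. The labels do not say whether replicates came from separate animals, so spreads may be technical. The sources used here state neither the genetic background of the WT and KO mice nor how the deletion was made. Peak lists hold no RNA or protein level, so the absence of IRF8 from KO cells was not measured.

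Fragments per library ranged from 7.25 M to 24.7 M, and distinct regions per IRF8 list from 1168 at P9 to 29667 in adults. KO H3K27ac replicate 2 was the shallowest genotype library, with 8.57 M fragments and 31524 regions beside 88400 in replicate 1. Consensus regions, which need a peak in at least 2 libraries of a group, numbered 36697 for WT and 10555 for KO H3K27ac. As a check of the cell labels, adult IRF8 consensus regions lay within 1 kb of the start of 7 of 8 microglial marker genes and 1 of 7 peritoneal macrophage markers (Timd4). In peritoneal libraries these counts were 2 of 8 and 3 of 7 (Gata6, Timd4, Icam2). At P9 and P14 they were 1 and 5 of 8 microglial markers and 0 of 7. H3K27ac consensus regions lay at the starts of 7 of 8 microglial markers in WT and 3 of 8 in KO, of 1 of 7 peritoneal markers in both (Rarb), and of 1 of 6 markers of neurons and other glia in WT (Mbp) and 0 of 6 in KO. The part of this in the H3K27ac values below was not tested. No start among the 6 markers of neurons and other glia held an IRF8 consensus region in any group.

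In the full lists, IRF8 peaks near the inflammasome genes were few at P9 and present at nearly all of them from P14 on. Counts at equal list length, where no rise from P9 to adults was seen, are given further below. A P9 consensus region lay in the windows of Naip6 and Nlrp3 alone, 2 of 10 genes beside 7.00% of all protein-coding genes. The count was 9 of 10 at P14 (32.0% of all genes), 9 of 10 in adult microglia (50.6%) and 8 of 10 in peritoneal macrophages (39.9%). Within 1 kb of an annotated start, the counts were 2 of 10 at P9 (1.52% of all genes), 6 at P14 (11.8%), 7 in adults (26.5%) and 7 in peritoneal macrophages (17.8%). The share of these genes was above that of all genes in every group, and no test of this was made. The number of IRF8 lists with a peak differed widely between regions: of 52 merged regions, 24 were in 1 of the 13 lists, 6 in at least 10, and none in all 13.

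**Figure D1:**
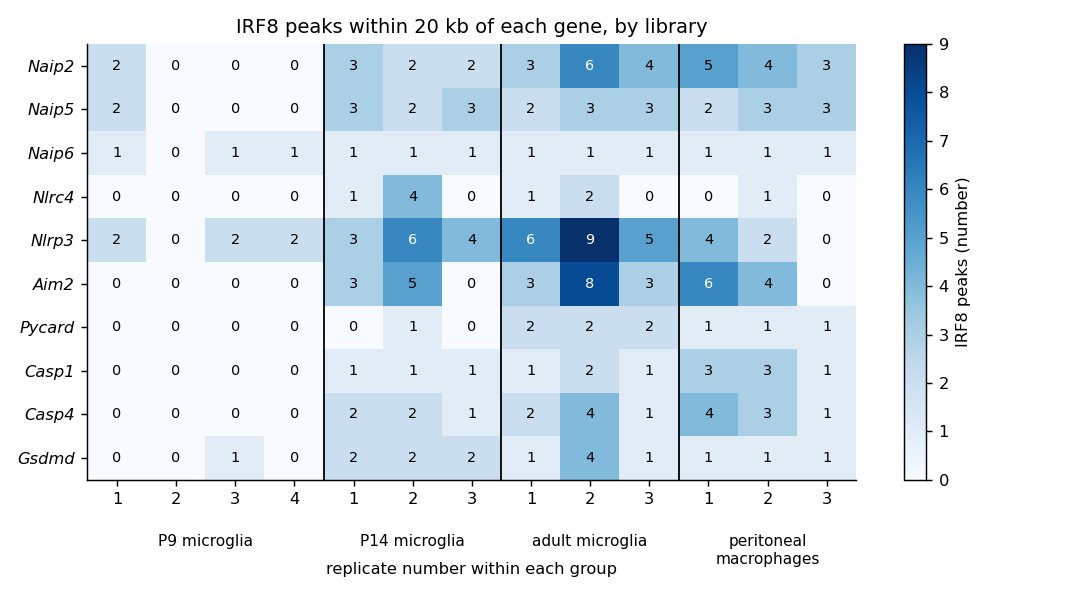
Number of distinct IRF8 peaks within 20 kb of each gene (rows) in each of the 13 IRF8 libraries (columns, by replicate number within group); darker cells hold more peaks. P9 columns hold mostly 0, Naip6 has exactly 1 peak in 12 of the 13 libraries, and Nlrp3 and Aim2 reach 9 and 8 in adult replicate 2.

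Over all 10 windows, P9 libraries held 6, 0, 4 and 3 IRF8 peaks, P14 libraries 16, 24 and 11, and adult libraries 20, 37 and 18. Adult replicate 2, with the most peaks here, was also the deepest of the IRF8 libraries. Adult replicates 1 and 3 were the shallowest, at 7.51 and 7.25 M fragments, beside 13.4 to 20.9 M at P9. The part of depth in these counts was not tested. The ages were compared gene by gene with an exact permutation Jonckheere-Terpstra test (two-sided, 4200 assignments, Benjamini-Hochberg adjusted over 16472 genes). Among all genes 46.0% were called higher with age and none lower, and 8613 had an unadjusted p under 0.05. The test called 6 of the 10 genes higher: Naip2, Nlrp3, Aim2, Pycard, Casp1 and Casp4. The median statistic was 28.5 of a possible 33 for these 10 genes and 26.5 for all genes tested, so the increase with age near inflammasome genes was part of one seen at 46.0% of the genes tested. Each stage has its own IgG control, so stage and control cannot be told apart.

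Peak numbers also moved with the length of the lists. As a share of the whole list, the 10 windows held 0 to 0.439% of P9 regions, 0.125 to 0.201% of P14 regions and 0.0803 to 0.125% of adult regions. With every stage list cut to its strongest regions at the length of the shortest, 5 of the 10 genes could still be tested and none was called, as none of all 3899 genes was. At equal length across the 13 lists, 2 of the 10 genes had an IRF8 consensus region at P9 (5.84% of all genes), 4 at P14 (5.31%), 2 in adult cells (5.41%) and 5 in peritoneal macrophages (4.39%). In the full lists, no member had a region present in every P9 library (0 of 10, beside 1.99% of all genes). With 5 kb windows the calls at Aim2, Pycard and Casp4 were lost (adjusted p = 0.0517, 0.0546 and 0.343, exact permutation test), and with a −log10 p of at least 10 those at Naip2 and Pycard (0.0583 and 0.164). No member kept its call without P9 replicate 3 or 4. Without P9 replicate 1 only Naip2, without P9 replicate 2 only Nlrp3, and without adult replicate 2 only Naip2 and Nlrp3 were called. Aim2 also lost its call without P14 replicate 1, adult replicate 1 or adult replicate 3 (adjusted p = 0.0528, 0.0555 and 0.0511, exact permutation test). Without adult replicate 1 Casp4 lost its call (0.0509) and Naip5 gained one (0.0470). Over all genes, the share called higher was 9.719 to 10.83% with 1 P9 library left out and 12.2% without adult replicate 2.

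The 3 NAIP genes lie side by side on chromosome 13 and are transcribed from the minus strand. Each had an IRF8 region at or just before its GENCODE start. These were chr13:100201497-100202346 across the Naip2 start, chr13:100246703-100247562 at 380 bp upstream of the Naip5 start, and chr13:100317178-100317930 across the Naip6 start. The Naip5 distance depends on the annotation, as given below. All 3 regions had a peak in every P14, adult and peritoneal library. Strength is given below as the rank of a peak within its own list, a percentile of the authors' −log10 p in which 100 is the strongest; because lists differ in length, ranks from different lists show no change by themselves.

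At Naip2, whose product recognises the rod of type III secretion systems, the region was found at P9 in replicate 1 alone, at percentile 57.4. It ranked at 94.1, 98.3 and 96.1 in the P14 lists, at 90.1, 93.8 and 92.8 in adults, and at 99.1, 96.5 and 98.1 in peritoneal macrophages. From P14 on, every list thus placed it at percentile 90.1 or higher. The number of IRF8 peaks in the Naip2 window was 2, 0, 0 and 0 at P9, 3, 2 and 2 at P14, and 3, 6 and 4 in adults (statistic 31.5 of 33, adjusted p = 0.0180, exact permutation test as above).

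Naip5, which encodes a flagellin receptor, also had its IRF8 region at P9 in replicate 1 alone, at percentile 76.1. Its ranks were 89.9, 96.1 and 94.6 at P14, 94.7, 98.0 and 98.3 in adults, and 98.7, 99.6 and 99.3 in peritoneal macrophages. Naip5 was not called over the stages (adjusted p = 0.0535, exact permutation test), with P14 libraries at 3, 2 and 3 peaks and adults at 2, 3 and 3. Counted as bases under peaks instead of peaks, it was called (adjusted p = 0.00684, exact permutation test).

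Naip6 encodes another flagellin receptor, and IRF8 was found there in more P9 libraries than at Naip2 or Naip5. Its region was present in 3 of 4 P9 libraries, at percentiles 66.5, 85.6 and 80.1, and absent from P9 replicate 2. The P14 ranks were uneven, at 40.1, 98.7 and 95.2, the adult ranks were 92.7, 96.3 and 89.0, and the peritoneal ranks were 98.2, 96.5 and 93.8. It was the single IRF8 peak of the Naip6 window in all 12 libraries that had one, and the trend in peak number was not called (adjusted p = 0.730, exact permutation test). The bases under that peak were called higher with age (statistic 30 of 33, adjusted p = 0.0238, exact permutation test). By this measure 8 of the 10 genes were called, beside 50.7% of all genes.

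**Figure D2:**
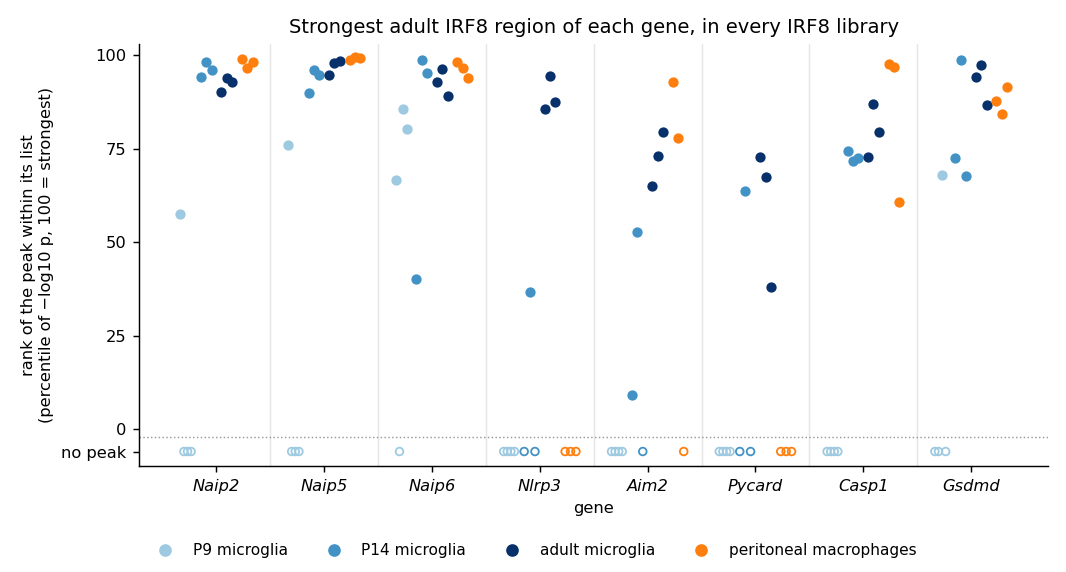
Rank of the strongest adult IRF8 region of each gene in each IRF8 library (vertical axis: percentile of −log10 p within that library's list, 100 the strongest; open circles: no peak; colours: the 4 groups). Naip2, Naip5 and Naip6 are filled in every P14, adult and peritoneal library, and the Nlrp3 and Pycard regions are open in all 3 peritoneal libraries; the regions were picked for their rank in adults, and 39.9% of all adult consensus regions have no peritoneal peak. Casp4 is left out because its strongest region is that of Casp1, and Nlrc4 because it had no adult consensus region.

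A stretch with an ETS-IRF type motif occurs within the IRF8 regions of all 3 NAIP genes. The search used GGAANNGAA (an ETS and an IRF core joined), GAAANNGAA (tandem IRF cores) and GGAAGT (an ETS core), on both strands, within 100 bases of the summits of the regions named here; GGAAGT can overlap GGAANNGAA. Sequences are from the RefSeq copy of GRCm38.p6. The following 30 bases hold GGAANNGAA, in capitals, and are shown because the same stretch occurs at all 3 genes, in minus-strand orientation, at chr13:100201916-100201945, chr13:100247137-100247166 and chr13:100317501-100317530.
Naip2: gctgtgcgaggGGAAATGAAagtaactaag
Naip5: gctgtgcgaggGGAAATGAAagtaactaag
Naip6: gctgtgcgaggGGAAATGAAagtaactaag

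The 3 copies are identical over these 30 bases. By GENCODE the stretch lies in an intron of Naip2, between genes upstream of Naip5 and in an intron of Naip6. Peaks covered it in all 3 P14, all 3 adult and all 3 peritoneal IRF8 libraries at each gene. WT PU.1 peaks covered it in 2 of 2 libraries at Naip2 and Naip5 and in 1 of 2 at Naip6. In KO no PU.1 peak covered it at Naip2 or Naip6, and 1 of 2 libraries had one at Naip5.

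A second stretch, in which the copies differ, has its middle upstream of the nearest GENCODE start. The positions are −31 at Naip2, −34 at Naip6 and −1021 at Naip5, where negative positions lie upstream. The Naip5 distance depends on the annotation: the RefSeq promoter of Naip5, chr13:100247287-100247586, holds its stretch, as does that of Naip2. The RefSeq promoter of Naip6, chr13:100316567-100316866, does not hold its stretch. The second stretch is shown on the plus strand at chr13:100202108-100202137, chr13:100247329-100247358 and chr13:100317693-100317722, with capitals at the 9 positions where Naip2 holds GAAANNGAA.
Naip2: agggggcagaGAAAATGAAcaggaagtggc
Naip5: agggggcagtGAAAGCAAAtaggaagtggc
Naip6: agggggcagtGAAAGCGAAtaggaagtggc

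Counted from 1 at the 5′ end of the printed stretch, and with the Naip2 base first, Naip6 differed by A10T, A15G, T16C and C20T, and Naip5 by A10T, A15G, T16C, G17A and C20T. Naip6 keeps a match to GAAANNGAA and Naip5 does not. An ETS core GGAAGT stands a few bases further on in all 3. The identical stretch was found in the 200-base windows around the PU.1 summit at Naip2 and the lost H3K27ac summits at Naip5 and Naip6; the windows around the adult IRF8 summits of the 3 genes hold no GGAANNGAA. Of all lost regions searched in the same way, 9.13% of 1347 for PU.1 and 7.24% of 12491 for H3K27ac hold GGAANNGAA. Around the IRF8 summits, GAAANNGAA was found at Naip2 and Naip6 and GGAAGT at Naip2 and Naip5. Of 16934 adult IRF8 consensus regions, 7.16% hold GGAANNGAA, 6.84% GAAANNGAA and 18.4% GGAAGT in such windows. Among 32851 RefSeq promoters of 300 bases the shares were 8.24%, 8.56% and 23.8%, in the same order. A match describes the letters and not a site of binding.

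In KO microglia the H3K27ac peak at each of the 3 NAIP starts was absent from both libraries. H3K27ac marks active promoters, and in WT the lost regions were chr13:100200550-100202792 (Naip2), chr13:100246695-100247689 (Naip5) and chr13:100316366-100317784 (Naip6). The WT peaks ranked at 96.8 and 90.3 at Naip2, at 94.5 and 96.9 at Naip5, and at 75.5 and 84.7 at Naip6. The authors' fold enrichments over control in WT replicates 1 and 2 were 8.84 and 7.49 at Naip2, 8.40 and 11.4 at Naip5, and 5.91 and 6.87 at Naip6. All 3 regions overlapped an IRF8 consensus region of P14, adult and peritoneal cells. Each was present in 2 WT and 0 KO libraries also when only peaks with a −log10 p of at least 10 were used, and when the lists were cut to equal length.

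PU.1 and H3K4me1 differed between the 3 genes. At Naip2 the PU.1 region chr13:100201903-100202201 ranked at 84.4 and 98.2 in WT and was absent from both KO libraries, whereas H3K4me1 was present in both genotypes (82.5 and 93.7 in WT, 91.7 and 96.1 in KO). At Naip5 the PU.1 peak ranked at 72.9 and 89.2 in WT and was listed in KO replicate 2, at 75.1, but not in KO replicate 1, so the region was not counted as lost. Its H3K4me1 peaks within 1 kb of the start ranked at 70.3 and 82.7 in WT and at 50.0 and 25.5 in KO. At Naip6 WT replicate 2 alone had a PU.1 peak, at 59.8. Here H3K4me1 was also lost, with WT peaks at 72.6 and 66.1 and none in KO (region chr13:100314783-100318230). At the NAIP starts, then, H3K27ac was lost at all 3 genes (beside 34.0% of all WT H3K27ac regions), PU.1 at Naip2 (25.1% of all PU.1 regions) and H3K4me1 at Naip6 (13.0%). One other H3K27ac region was lost in the Naip2 window, chr13:100148454-100149066 in an exon of the gene, at 38.3 and 87.1 in WT and with no IRF8 peak in any library.

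**Figure D3:**
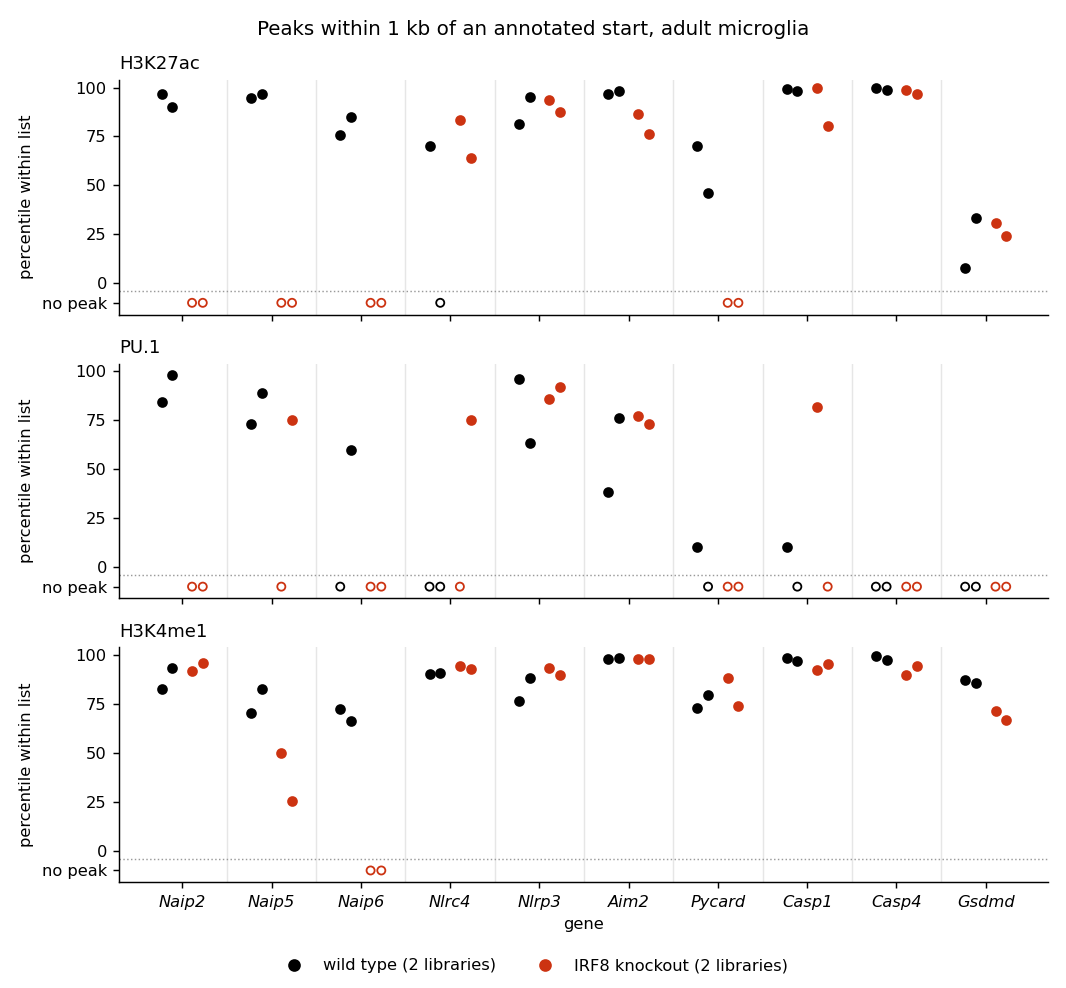
Strongest peak within 1 kb of an annotated start of each gene in adult microglia, for H3K27ac, PU.1 and H3K4me1 (vertical axis: percentile of −log10 p within the list; black: 2 WT libraries; red: 2 KO libraries; open circles: no peak). H3K27ac is open in both KO libraries at Naip2, Naip5, Naip6 and Pycard, and H3K4me1 only at Naip6.

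The Naip6 window held no peak of any of the 6 KO libraries. Of the 13546 protein-coding genes with a WT H3K27ac consensus region in their window, Naip6 was the only one of which this was true (0.00738%); of the genes with a WT H3K4me1 consensus region, 0.172% had no KO peak. The stretch without a KO peak ran from chr13:100247838-100377963, 130.1 kb, in which WT libraries had 2 H3K27ac, 5 H3K4me1 and 1 PU.1 peaks and each IRF8 group had 3. Among 280 stretches of at least this length without a KO peak, it was the only one that held a whole WT H3K27ac consensus region. It was singled out after its values were seen. The NAIP cluster is known to differ in gene content between mouse strains. Since the strain background of the WT and KO mice is not stated and peak lists give no coverage, whether both carry the same sequence here was not tested, and an absent peak cannot be told apart from absent or unmapped sequence.

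Sequence repetition is high in the same place. Of all 32-base stretches of the Naip6 window, 34.9% occur once on the assembled chromosomes, against 52.0% in the Naip5 window, 82.2% in the Naip2 window and 82.5 to 93.2% in the other 7. In the IRF8 regions themselves the shares were 67.6% at Naip2, 34.3% at Naip5 and 29.6% at Naip6, beside a median of 100% and a 5th percentile of 83.5% over 1694 adult IRF8 regions. Reads were pairs of 35 nt, and reads that fit several NAIP copies cannot be assigned to one of them. The sources used here do not state how such reads were treated in the alignment, and its part in the NAIP values was not tested.

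Nlrc4, the partner that NAIP proteins assemble with, showed little IRF8. No P9 library had a peak in its window, P14 libraries had 1, 4 and 0, adults 1, 2 and 0, and peritoneal macrophages 0, 1 and 0. The only IRF8 consensus region was in P14, in an intron 7010 bp from the start, and the stage trend was not called (adjusted p = 0.160, exact permutation test). All 3 WT H3K27ac regions and the single WT PU.1 region of the window had a peak in KO. Within 1 kb of a start, H3K27ac ranked at 70.3 in WT replicate 1, was not found in WT replicate 2, and ranked at 83.2 and 63.8 in KO, so the loss seen at the NAIP starts was not seen here.

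Nlrp3, the sensor of disturbed ion balance, had 6 adult IRF8 consensus regions, the most of the 10 genes in adults. Aim2 had as many at P14 (3) and more in peritoneal macrophages (4 against 2). Its window held 2, 0, 2 and 2 peaks at P9, 3, 6 and 4 at P14, 6, 9 and 5 in adults, and 4, 2 and 0 in peritoneal macrophages. The trend over stages was called (statistic 31.5 of 33, adjusted p = 0.0173, exact permutation test). The region across the start, chr11:59539686-59544028, had a peak in 3 of 4 P9, all P14, all adult and 2 of 3 peritoneal libraries. The strongest adult region, chr11:59577491-59578784, lies 34735 bp beyond the start in an exon of the non-coding gene Gm12261. It ranked at 85.5, 94.5 and 87.5 in adults, was found in P14 replicate 2 alone at 36.7, and had no peak in any P9 or peritoneal library.

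In KO, 4 of the 6 WT H3K27ac regions around Nlrp3 had no peak (34.0% of all WT regions), and 0 of the 3 PU.1 regions were lost (25.1% of all). The lost regions were chr11:59537613-59538830, 2738 bp upstream of the start, chr11:59532933-59535425 at 6143 bp upstream, chr11:59526897-59527634 at 13934 bp upstream next to the start of Zkscan17, and chr11:59558805-59559875 in an intron. In WT they ranked at 50.8 and 41.0, 18.6 and 85.6, 18.6 and 82.5, and 38.3 and 65.0, so none ranked above 50.8 in WT replicate 1. With a −log10 p of at least 10, none of the 4 had a peak in both WT libraries. The start kept its H3K27ac, at 81.2 and 95.0 in WT and 93.8 and 87.6 in KO, and its PU.1, at 95.9 and 63.6 in WT and 86.1 and 92.1 in KO. H3K4me1 was found in both KO libraries at all 4 regions.

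Aim2, the DNA sensor, is annotated with 6 starts over a gene body of 115162 bp, and the interferon-inducible gene Ifi206 reaches into its window. The IRF8 region at one of these starts, chr1:173418828-173421331, had no peak at P9. It ranked at 9.16 and 52.7 in P14 replicates 1 and 2, at 65.0, 73.2 and 79.4 in adults, and at 92.9 and 77.9 in peritoneal replicates 1 and 2, with no peak in the third library of either group. The stage trend was called (P14 libraries at 3, 5 and 0 peaks, adults at 3, 8 and 3, adjusted p = 0.0379, exact permutation test), but not without any 1 of the 4 P9 or 3 adult libraries or P14 replicate 1, where adjusted p was 0.0511 to 0.0887. H3K27ac at this start was kept in KO, at 86.7 and 76.4, beside 96.6 and 98.3 in WT. Of 10 WT H3K27ac regions in the window 1 was lost, in an intron (chr1:173401446-173402399). The Aim2 window also held the only H3K27ac region gained in KO, chr1:173471492-173472344 in an exon of Ifi206, at 46.9 and 63.8. H3K4me1 lost 1 of 6 regions there and gained 2 of 8, both gained ones in Ifi206.

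Pycard encodes the adaptor ASC that joins sensors to caspase-1. Its start region, chr7:127991799-127993969, ranked at 72.8, 67.5 and 38.0 in adults and at 63.6 in P14 replicate 2, and had no peak in P9, in the other P14 libraries or in peritoneal macrophages. Peritoneal libraries had 1 IRF8 peak each in the window, each at a different place. The trend was called (P14 libraries at 0, 1 and 0 peaks and adults at 2 each, adjusted p = 0.0211, exact permutation test). In KO no H3K27ac peak lay within 1 kb of the start, but 1 KO peak reached the wider IRF8 region, at 78.7 in replicate 1. The 2 H3K27ac regions lost of 3 in the window lie at the neighbouring Trim72, chr7:128008239-128010010 (33.1 and 53.3 in WT) and chr7:128010810-128014250 (79.7 and 94.8). The second of these overlapped an IRF8 region found in all 3 adult libraries, at 41.2, 53.9 and 64.4, and in none of the others.

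Casp1 and Casp4, the inflammatory caspases, lie next to each other on chromosome 9. IRF8 occupied the Casp1 start, chr9:5297665-5299983, in every P14, adult and peritoneal library and in no P9 library. The ranks were 74.3, 71.7 and 72.4 at P14, 72.8, 86.9 and 79.4 in adults, and 97.8, 96.7 and 60.8 in peritoneal macrophages. At the Casp4 start IRF8 was seen in adult replicate 2 and in peritoneal replicates 1 and 2. Both genes were called over the stages (adjusted p = 0.0183 for Casp1 and 0.0211 for Casp4, exact permutation test), and the shared Casp1 start region counts for both. With 5 kb windows, which no longer share it, Casp4 was not called (statistic 20 of 33, adjusted p = 0.343, exact permutation test). This region holds GGAANNGAA at 2 places upstream of the start, chr9:5298432-5298461 and chr9:5298492-5298521, shown here on the minus strand because the motif also occurs at the NAIP genes and near Gsdmd.
Casp1, 71 bp before the start: caacaagtccaGGAAGAGAAggtagagaat
Casp1, 11 bp before the start: ggaagagctcaGGAAAGGAAgggagtgagt

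Unlike the NAIP starts, both caspase starts kept H3K27ac in KO. At Casp1 it ranked at 99.2 and 98.2 in WT and at 99.8 and 80.3 in KO, and at Casp4 it ranked at 98.9 or above in both WT libraries and at 98.7 and 96.9 in KO. An H3K27ac region of 6228 bp across the start of Casp12, a related caspase 18167 bp from the nearest Casp4 start, was lost (chr9:5341515-5347742, 95.6 and 97.5 in WT). IRF8 overlapped it in 2 P14 and 2 adult libraries and in no peritoneal one, and H3K4me1 remained in both KO libraries. The other lost region, chr9:5316153-5318257 in an intron of Casp4, was weak in WT, at 38.3 and 19.3, and held no IRF8 peak. No PU.1 consensus region was found near either caspase in either genotype.

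Gsdmd encodes gasdermin D, the pore that the caspases release. Its strongest IRF8 region, chr15:75856827-75857854, lies 4473 bp upstream of the start. It was present at P9 in replicate 3 (67.9), at P14 (72.6, 98.7 and 67.7), in adults (94.1, 97.3 and 86.7) and in peritoneal macrophages (87.6, 84.2 and 91.5). PU.1 was found there in both genotypes, at 97.1 and 97.4 in WT and 92.0 and 92.1 in KO. The window held 0, 0, 1 and 0 IRF8 peaks at P9, 2 in each P14 library, and 1, 4 and 1 in adults, and the stage trend was not called (adjusted p = 0.121, exact permutation test). H3K27ac at the start was low in rank in both genotypes, at 7.59 and 33.5 in WT and 30.6 and 24.4 in KO.

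A second region, 14505 bp upstream of Gsdmd and 5614 bp from the start of Zc3h3, behaved differently in KO. The PU.1 region chr15:75847529-75847822 ranked at 81.7 and 82.4 in WT and was absent from both KO libraries. The H3K27ac region around it, chr15:75847194-75848112, ranked at 57.7 and 85.0 in WT and was lost as well, and no KO H3K4me1 peak overlapped it. IRF8 was found in P14 replicates 2 and 3 (94.9 and 48.3) and in adult replicate 2 (83.1), which is short of an adult consensus region. Among the 10 genes this and the Naip2 start were the places where PU.1 and H3K27ac were both lost. The 200 bases around the H3K27ac summit are printed because they hold GGAANNGAA, in capitals, within the lost PU.1 region.
Gsdmd upstream, chr15:75847564-75847763, plus strand: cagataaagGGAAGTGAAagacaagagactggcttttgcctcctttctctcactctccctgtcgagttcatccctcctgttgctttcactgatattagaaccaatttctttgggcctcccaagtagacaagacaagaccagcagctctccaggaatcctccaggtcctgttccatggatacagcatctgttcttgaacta

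Both PU.1 regions lost near inflammasome genes thus hold GGAANNGAA somewhere in their length, for which no share over all regions was computed. Over all WT PU.1 consensus regions the motif was in 9.13% of the 1347 lost and 8.48% of the 4011 kept regions in 200-base summit windows. The Gsdmd motif lies outside the 200-base window of the PU.1 summit and inside that of H3K27ac. In the PU.1 summit windows only the Naip2 region holds the motif. A last H3K27ac region was lost downstream of Gsdmd, chr15:75887126-75888102 in an exon of Mroh6, at 73.8 and 7.81 in WT and with no IRF8 peak.

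**Figure D4:**
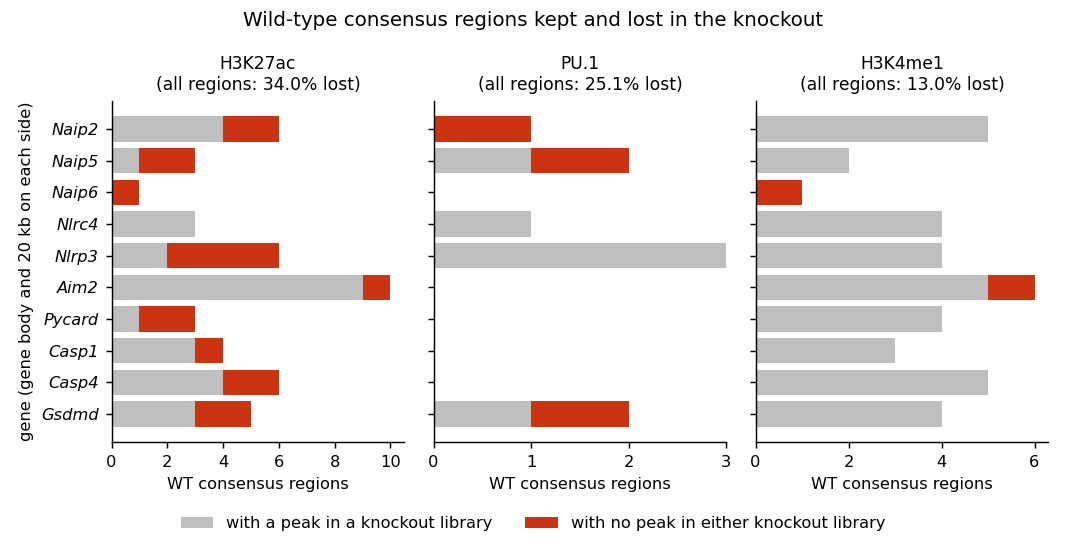
WT consensus regions in each gene's window (bar length: number of regions) that had a peak in a KO library (grey) or in neither (red), for H3K27ac, PU.1 and H3K4me1. Red covers the single H3K27ac region of Naip6 and 4 of 6 at Nlrp3, while Nlrc4 shows none; regions in overlapping windows are drawn for each gene.

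Summed over the 10 genes, counting each region once, 15 of 41 WT H3K27ac regions were lost (36.6%, beside 34.0% of all WT regions), 4 of 8 in the NAIP windows and 11 of 33 in the others. For PU.1 2 of 8 regions were lost, beside 25.1% of all, and for H3K4me1 2 of 34, beside 13.0%. Gains were 1 of 13 KO H3K27ac regions (10.9% of all KO regions), 0 of 5 for PU.1 (16.5%) and 3 of 40 for H3K4me1 (23.8%). The shares of H3K27ac and PU.1 regions lost were thus near the background and say nothing particular about these genes. Counted by gene, at least 1 region was lost at 9 of 10 genes for H3K27ac (57.1% of all genes with a WT region), at 3 of 5 for PU.1 (28.7%) and at 2 of 10 for H3K4me1 (19.2%). The 3 genes for PU.1 rest on 2 regions, since Naip5 counts only through the region at the Naip2 start, 44122 bp away. These 10 windows also hold more H3K27ac regions to lose, with a median of 4.5 in WT against 1 over all genes. No KO peak of the same target was left anywhere in the window for H3K27ac at Naip6 (2.38% of genes), for PU.1 at Naip2 (7.86%) and for H3K4me1 at Naip6 (0.223%). Within 20 kb, H3K27ac consensus regions were found at 10 genes in WT (61.7% of all genes) and 7 in KO (30.1%), PU.1 at 5 (22.4%) and 3 (20.9%), and H3K4me1 at 10 (79.6%) and 9 (82.1%). At the starts of the 10 genes, H3K27ac consensus regions were present at 9 in WT (39.0% of all genes) and 6 in KO (11.7%), PU.1 at 3 (6.38%) and 2 (6.44%), and H3K4me1 at 10 (57.3%) and 9 (64.6%). With 2 libraries per genotype the smallest exact two-sided p is 0.333, so genotypes were not tested. Lost H3K27ac regions were 18 of 41 without the shallow KO replicate 2 (37.3% of all WT regions), 26 of 41 without KO replicate 1 (72.9%), 34 of 63 without WT replicate 1 (59.5%) and 27 of 58 without WT replicate 2 (54.5%). Lost PU.1 regions were 10 of 18 without WT replicate 2 (58.6%) and 4 of 8 without KO replicate 2 (35.6%). Lost H3K4me1 regions were 7 of 50 without WT replicate 1 (44.1%) and 9 of 49 without WT replicate 2 (33.0%). Gained H3K27ac regions were 7 of 25 without KO replicate 1 (55.5% of all KO regions) and 14 of 45 without KO replicate 2 (55.9%). For H3K4me1 they were 9 of 61 (56.0%) and 11 of 57 (41.7%), and for PU.1 6 of 14 without KO replicate 1 (58.2%). Without a WT library, gains were 2 of 13 for H3K27ac (replicate 1, 17.6%), 7 of 40 for H3K4me1 (replicate 2, 32.6%) and 1 of 5 for PU.1 (replicate 2, 24.3%). The share over all regions rose in each of these cases too. Leaving out 1 of 2 libraries makes every peak of the other count as a region. The PU.1 lists of replicates 1 and 2 were also called against different controls and at different q-values.

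Adult IRF8 consensus regions in these windows were set against the consensus regions of the marks, and no test was made of their shares against those over the genome. Of 19 regions, 19 overlapped a WT H3K4me1 consensus region (91.3% of all adult IRF8 regions), 18 a WT H3K27ac region (81.8%) and 6 a WT PU.1 region (27%). With KO consensus regions the counts were 18 (86.3%), 6 (28.3%) and 5 (20.8%). The KO H3K27ac counts rest on 10555 consensus regions against 36697 in WT, with the shallow KO replicate 2 among them, and the part of this in the lower overlap was not tested. With a −log10 p of at least 10, WT H3K27ac was overlapped at 10 of 16 regions (64.6% of all) and H3K4me1 at 0 of 16 (0.502%). At equal list length these counts were 9 of 17 (47.6%) and 7 of 17 (56.2%). Without WT PU.1 replicate 2 the PU.1 overlap was 14 of 19 (44.1%).

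Of 20 other genes of the pathway, among them Naip1, the interleukin genes, further sensors and Ninj1, which ruptures the membrane in lytic death, the windows of 7 held an IRF8 consensus region at P9 (7.00% of all genes), of 17 at P14 (32.0%), of 19 in adult microglia (50.6%) and of 17 in peritoneal macrophages (39.9%). The stage trend called 11 of 20 higher, beside 46.0% of all genes, and none lower. PU.1 regions were lost at 6 of 21 (25.1% of all), near Gbp5 (1 of 1), Il18 (1 of 2), Nek7 (2 of 4), Nlrp1a (1 of 1), Nlrp1b (1 of 2) and Txnip (1 of 3), the lost region of the neighbours Nlrp1a and Nlrp1b being one and the same. H3K27ac was lost at 21 of 84 regions (34.0% of all), near 14 of the 18 genes with a WT region (57.1% of all such genes): Casp8, Casp12, Gsdme, Il18, Il1a, Il1b, Mefv, Nek7, Ninj1, Nlrp1a, Nlrp1b, P2rx7, Panx1 and Txnip. The Casp12 region is the one described beside Casp4. At Nlrp1b, a rodent sensor, 3 of 4 H3K27ac regions were lost. H3K4me1 was lost at 7 of 70 regions (13.0% of all) and gained at 11 of 79 (23.8%), and 0 of 14 PU.1 (16.5%) and 0 of 31 H3K27ac regions (10.9%) were gained. Naip1, the NAIP gene at the other end of the cluster, had no H3K27ac or PU.1 consensus region in either genotype.

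Adult microglia and peritoneal macrophages both had IRF8 consensus regions at or just before the NAIP and Casp1 starts. Windows of all 10 genes held 20, 37 and 18 IRF8 peaks in adult microglia and 23, 18 and 8 in peritoneal macrophages. With 3 libraries against 3, an exact test cannot go below p = 0.1, and none is given. Every adult count lay above every peritoneal count at 2 of the 10 genes, Nlrp3 and Pycard, beside 9.08% of the 17503 genes with a peak in these 6 lists; the reverse held at 0 of 10, beside 1.45%. With the 6 lists cut to their strongest 9788 regions, a setting chosen after seeing the data, both counts were 0 of 10 (7.56 and 3.83% of all genes). Nlrp3 then had 5, 3 and 5 peaks in adults and 3, 1 and 0 in peritoneal macrophages, and Pycard 1 each in adults and 0, 0 and 1. In the full lists the Nlrp3 counts were 6, 9 and 5 against 4, 2 and 0 (in batch 1, 6 and 9 against 4 and 2; in batch 2, 5 against 0), and the region across its start had a peak in 2 of 3 peritoneal libraries. At Pycard the full lists held 2 peaks in each adult and 1 in each peritoneal library. At Casp1 the order was the reverse in batch 1 (1 and 2 against 3 and 3) and equal in batch 2 (1 and 1). The labels do not say whether a batch number means the same batch in both cell types. Peritoneal replicate 3 had the shortest of these 6 lists, with 9788 regions, and no peak near Nlrp3 or Aim2. The 2 cell types also have different IgG controls, so cell type and control cannot be told apart.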

How the data were processed

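CUT&RUN libraries were sequenced as pairs of 35 nt, per the labels; the submitters' processing notes name bcl2fastq, Trim Galore, Bowtie2, deepTools, MACS2 and build mm10. Peaks were called by the authors for each library separately with MACS 2.2.7.1 (IRF8, PU.1) or 2.2.6 (histone marks), per the file headers, with gaps up to 640 bp joined for IRF8, PU.1 and H3K27ac. The q-value threshold was 0.01, and 0.05 for replicate 2 of PU.1; H3K4me1 was called as broad regions at p 0.01, per the file headers. The deposited columns give the pileup signal, the fold enrichment over control (a ratio), and p-value and q-value as −log10; the −log10 p ranks peaks within a list, fold describes a few of them, and the others were not used. Per the labels, 4 of 7 P9 libraries and 2 of 3 KO H3K27ac libraries were provided. IgG libraries, of which the labels hold 4, enter through the peak calls. Per the file headers, both PU.1 replicate 2 lists used a control of 20.1 M fragments, and the other adult microglia lists one of 18.5 M. The labels hold a single adult IgG library, so not every control is among them.

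Regions were overlapped (at least 1 bp) in Python 3.11.15 with numpy 2.4.6 and pandas 2.3.3. A lost region is a WT consensus region without a peak in either KO library, and a gained one the reverse. The stage trend counted distinct IRF8 peaks per window, and the call was an adjusted p under 0.05; the test was tried on simulated counts. Named were all 10 genes, the adult IRF8 consensus region of highest mean rank for each, and every PU.1 or H3K27ac region lost or gained; 18 such regions were found, where the rule asked for the 10 nearest to a start, and the others were added after their values were seen. Motif stretches are those within 100 bases of the summits of named regions. Alternatives were the window (5 kb), a −log10 p of at least 10, lists of equal length, the consensus rule, the overlap, the replicate block, bases under peaks and leaving out each library. The genes and lists were chosen with earlier results of these data known. No p-value was computed between genotypes. Counts of peaks depend on depth, which the deposited lists do not correct.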

Additional observations from a re-analysis of the deposited data

Results flagged for a closer look

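In the group of 4 P9 libraries, 1 library stood apart from the other 3 in the number of IRF8 peaks for 5 genes: 2 peaks in the Naip2 window and 2 in the Naip5 window in replicate 1, 0 in the Naip6 window and 0 in the Nlrp3 window in replicate 2, and 1 in the Gsdmd window in replicate 3. By Dixon's criterion chance flags about 1 group in 20. With counts this low, any library that differs from 3 tied ones meets the criterion, and the peaks at Naip2 and Naip5 in replicate 1 include the same region, since the windows overlap.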

How the results depend on the processing

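Called trends were 8 genes with bases under peaks (50.7% of all genes called), adding Naip5 and Naip6, and 4 with a −log10 p of at least 10 (16.8%). They fell from 6 genes to 3 with 5 kb windows (25.3%) and to 0 with lists of equal length, where Naip2 (statistic 15.5 of 33, adjusted p = 1, exact permutation test), Naip6 (12, 0.990) and Nlrp3 (10, 0.890) turned to the other side of no trend. With 1 library left out the number ranged from 0 to 6. Replicate numbers were checked for pairing by correlating deviations from the group mean over genes. The r was 0.0123 for PU.1, 0.0635 for H3K27ac, 0.159 for H3K4me1 and −0.0654 to 0.315 for the IRF8 stages. With 2 libraries per genotype the deviations mirror each other, so each genotype r is a single value and cannot decide pairing. PU.1 lists of the same replicate number shared a control and q-value across genotypes. In the main counts the numbers were not taken as pairs. With the replicate block (216 assignments) 0 genes were called, and the smallest adjusted p over all genes was 0.10 (exact permutation test). Taking pairs of libraries under the replicate block, on average 8 PU.1, 39 H3K27ac and 11.5 H3K4me1 regions of a WT library were lost (61.9, 71.4 and 50.1% of all) and 4, 12 and 15.5 of a KO library gained (60.6, 61.7 and 59.0%). The PU.1 pairs differed, with 13 of 18 regions lost in pair 1 (66.4% of all) and 3 of 10 in pair 2 (57.5%). With lists of equal length IRF8 presence was 2 genes in adults (5.41% of all genes), 4 at P14 (5.31%) and 5 in peritoneal macrophages (4.39%). In the full lists, 0 genes had a region present in every P9 library (1.99%). With the adult and peritoneal lists at equal length, a setting added after seeing the data, genes with every adult count above every peritoneal one went from 2 to 0. Without 1 peritoneal library, IRF8 presence in peritoneal macrophages was 6 to 8 genes. The share over all genes was not computed for this setting. A change particular to these genes thus cannot be told apart from one of the whole lists.

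With 5 kb windows, lost regions were 1 of 5 for PU.1 and 9 of 33 for H3K27ac, and gained regions 0 of 12 for H3K27ac and 0 of 25 for H3K4me1, with the shares over all regions as in the report. With a −log10 p of at least 10, H3K27ac regions lost were 6 of 15 (50.7% of all) and gained 0 of 2 (8.03%), no H3K4me1 region of the windows passed, and adult IRF8 regions overlapped PU.1 at 3 places, H3K27ac at 10 and H3K4me1 at 0. At equal list length 7 of 21 H3K27ac regions were lost (35.4%) and 0 of 9 gained (13.5%), with overlaps of 9 (H3K27ac) and 7 (H3K4me1). Against the consensus of the other genotype, lost regions were 4 of 8 for PU.1 (48.0% of all), 30 of 41 for H3K27ac (78.4%) and 4 of 34 for H3K4me1 (30.3%), and gained 1 of 5 (39.1%), 2 of 13 (19.7%) and 7 of 40 (44.4%). Asking for an overlap of 50% of the region gave 28 of 41 H3K27ac (68.8%) and 7 of 34 H3K4me1 regions lost (25.2%), 2 of 13 (18.7%) and 7 of 40 (43.0%) gained, and 2 of 19 IRF8 regions over PU.1 (13.8%). With 1 library left out, lost regions ranged from 2 to 10 (PU.1), 18 to 34 (H3K27ac) and 3 to 9 (H3K4me1), gained from 0 to 6, 1 to 14 and 4 to 11, and the PU.1 overlap from 5 to 14. Over all regions the share lost then ranged from 35.6 to 58.6%, 37.3 to 72.9% and 19.0 to 44.1%, and the share gained from 24.3 to 58.2%, 14.1 to 55.9% and 32.6 to 56.0%. The PU.1 overlap of all adult IRF8 regions ranged from 29.8 to 44.1%. The cause was not tested. Peak lists give presence above a threshold that moves with depth, so a region counted as lost may hold signal below it.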
